A study of Mus musculus with 50 samples.

Results

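The eicosanoid synthesis enzymes described here are a set of 6 mouse genes that turn membrane arachidonic acid into lipid mediators: the secreted phospholipase gene Pla2g10, the cyclooxygenase genes Ptgs1 and Ptgs2, the haematopoietic prostaglandin D synthase gene Hpgds, the thromboxane synthase gene Tbxas1 and the lipoxygenase gene Alox15. Members were taken by gene symbol from the annotation of both array platforms, and 5 of the 6 had a probe, among 13409 named genes on the larger platform and 13509 on the smaller. Ptgs1 had no probe on either platform and was not analysed here. Each of the other members had 1 probe on each platform.

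Eicosanoids are short-lived lipids made on demand. A phospholipase releases arachidonic acid from membrane phospholipids. A cyclooxygenase then converts it to prostaglandin H2, from which terminal synthases make prostaglandin D2, prostaglandin E2, prostacyclin or thromboxane A2, while lipoxygenases open a separate branch that leads to hydroxylated fatty acids and leukotrienes. In the airway, prostaglandin D2 and the leukotrienes are known as mediators of allergic inflammation, and IL-13, a cytokine of that inflammation, acts through the transcription factor Stat6.

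By its title, the series asked what IL-13 does directly to airway epithelial cells. It held 50 arrays in 10 groups of 5, in 2 tissues, tracheal perfusate and whole lung, and each array set a sample against a reference RNA. In each tissue the groups were IL-13 Stat6+/-, IL-13 Stat6-/- Epi+ (called Epi+ below), IL-13 Stat6-/-, ovalbumin (OVA, an allergen) and phosphate-buffered saline (PBS). All 3 IL-13 groups carried IL-13 in their labels, the Stat6-/- group included. The labels give no strain, age, sex, dose, time or promoter, no genotype for the OVA and PBS groups, and nothing on what Epi+ stands for. In mouse lines of this name it marks a transgene that restores Stat6 in airway epithelium. Whether the 5 arrays of a group stand for different animals is not in the labels. The p-values below therefore measure only the spread among these samples, and that spread may be technical.

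Values below are log2 ratios after the median of each array was subtracted, here called levels, and a difference between groups is on the log2 scale, given ± the limma standard error. A difference was called where limma's p-value, with Benjamini-Hochberg adjustment over all probes of the comparison, was under 0.05. No source states which channel is on top of the ratio. Sample over reference is the likely direction, because the Il13 probe was higher by 2.72 ± 0.21 in Stat6-/- perfusate than in PBS perfusate. Levels of different genes, and of the 2 platforms, were not set against each other, because each is relative to its own reference. The Stat6 probe did not separate the genotypes (difference of -0.10 ± 0.14 between Stat6+/- and Stat6-/- perfusate, limma adjusted p = 0.851, and -0.19 ± 0.28 in whole lung, limma adjusted p = 0.766), and its position with respect to the disrupted part of the gene is not stated. Among Stat6-/- arrays, perfusate replicates 10, 11 and 12 and whole lung replicates 1 and 2 were low on 1 of the 2 probes of the Y-linked gene Eif2s3y, at -3.45 to -1.93, against -0.71 to 1.34 on the other 35 arrays of the larger platform. The other Eif2s3y probe (medians of 0.10 and 0.11) and the Y-linked Kdm5d (medians of -0.03 and -0.04) did not separate them, and Uty overlapped, at -4.35 to -0.93 against -1.38 to 0.96. Member calls that change without these arrays are named below. Without them the Stat6-/- groups kept only perfusate replicates 13 and 14 and whole lung replicates 4, 5 and 6. In these bulk samples, fewer cells of a type and less RNA per cell cannot be told apart.

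Of the 5 measured members, 3 were called in tracheal perfusate between Stat6+/- and Stat6-/- samples, all higher in Stat6+/-: Pla2g10, Hpgds and Alox15. In this comparison 3.14% of 16874 probes were called. The members were chosen with earlier results of these data known, so such a share is no test of the set. Ptgs2 and Tbxas1 were not called. The plot of perfusate values shows all 5 members by group.

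**Figure D1:**
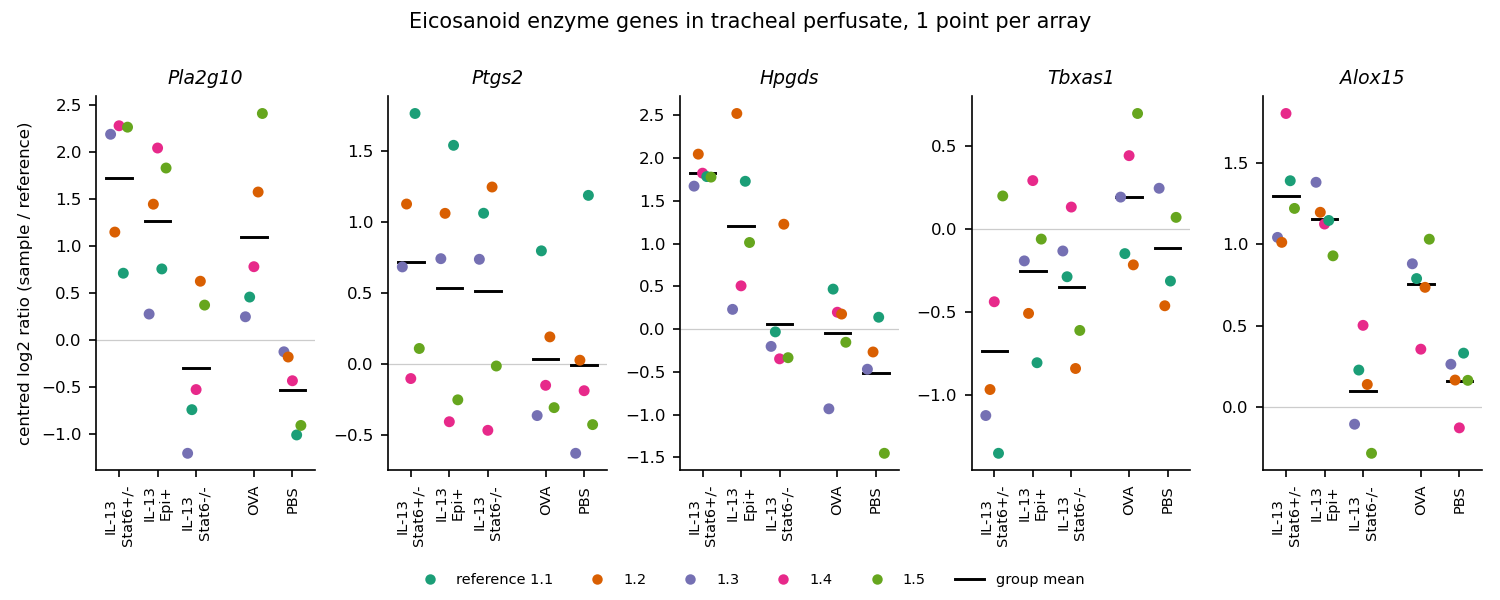
Centred log2 ratios of the 5 measured enzyme genes on the 25 tracheal perfusate arrays, by group on the horizontal axis. Each point is 1 array, coloured by its reference preparation, and the black bar is the group mean. Pla2g10, Hpgds and Alox15 lie higher in Stat6+/- than in Stat6-/- samples with no overlap, while Ptgs2 is highest with reference 1.1 on average and lowest with 1.4.

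The upstream sequences of Pla2g10 and Hpgds are shown because these genes differed together in perfusate, and that of Tbxas1 because it differed in whole lung. Alox15 differed in perfusate too, but the source used here held no upstream sequence for it. They are the 250 bases before the RefSeq start of each gene on GRCm38.p6, 5′ to 3′ on the gene's strand, with capitals for a Stat6-type palindrome (TTCNNNNGAA). The windows are chr16:13730485-13730734, minus strand, for Pla2g10, chr6:65144731-65144980, minus strand, for Hpgds and chr6:38918736-38918985, plus strand, for Tbxas1.
Pla2g10: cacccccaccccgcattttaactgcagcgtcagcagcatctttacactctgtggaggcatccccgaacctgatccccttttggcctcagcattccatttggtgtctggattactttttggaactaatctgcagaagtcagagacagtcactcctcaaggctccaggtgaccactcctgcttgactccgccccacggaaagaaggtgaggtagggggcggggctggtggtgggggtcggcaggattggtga
Hpgds: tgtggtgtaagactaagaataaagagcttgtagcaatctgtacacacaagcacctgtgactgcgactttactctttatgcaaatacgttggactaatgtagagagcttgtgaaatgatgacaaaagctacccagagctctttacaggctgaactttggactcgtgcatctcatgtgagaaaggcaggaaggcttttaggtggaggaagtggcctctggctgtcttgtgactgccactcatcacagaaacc
Tbxas1: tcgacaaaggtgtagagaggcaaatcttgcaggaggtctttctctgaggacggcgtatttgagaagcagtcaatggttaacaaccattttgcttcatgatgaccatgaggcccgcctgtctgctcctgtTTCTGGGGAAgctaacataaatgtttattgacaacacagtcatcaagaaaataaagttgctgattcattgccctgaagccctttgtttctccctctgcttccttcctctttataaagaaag
The palindrome occurred once in the Tbxas1 window, starting 121 bases before the gene, and in neither of the others. It occurred in 5.85% of 32851 RefSeq windows of the same length. The shorter palindrome TTCNNNGAA, found in 7.02% of all windows, was in none of the 3 windows. The AP-1 element TGANTCA was in the Tbxas1 window, 61 bases before the start, and in 6.75% of all windows. These palindromes read the same on both strands, and a match describes the letters only.

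Pla2g10 encodes a secreted phospholipase A2 that releases arachidonic acid from phosphatidylcholine. In Stat6+/- perfusate its levels were 2.19, 1.15, 2.28, 0.71 and 2.26, and in Epi+ perfusate they were 0.28, 1.45, 2.04, 0.76 and 1.83. In Stat6-/- perfusate they were -1.20, -0.74, -0.52, 0.63 and 0.37. Every Stat6+/- array lay above every Stat6-/- array, and Epi+ overlapped both groups. The difference between Stat6+/- and Stat6-/- was 2.01 ± 0.37, a 4.03-fold change (limma adjusted p = 0.00336), and it was positive within 5 of 5 reference preparations, from 0.52 to 3.39. Without the Stat6-/- arrays with low Eif2s3y, that group kept only replicates 13 and 14. The difference was then 1.53 and was not called (limma adjusted p = 0.219). In a fit of only the 2 groups it was not called either (limma adjusted p = 0.111).

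Epi+ against Stat6-/- was the second comparison, which asks what the Epi+ mark adds when Stat6 is otherwise absent. Here 1 member, Alox15, was called, against 0.486% of probes. Pla2g10 was higher by 1.56 ± 0.37 in Epi+ than in Stat6-/- and did not pass (limma adjusted p = 0.0697), although the sign was positive within 5 of 5 preparations. Stat6+/- against Epi+ gave 0 called members, with 0.0237% of probes called by limma and 7.02% at an unadjusted p under 0.05. The difference for Pla2g10 was 0.45, with a 95% interval of -0.32 to 1.22.

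PBS perfusate gave a second baseline. Pla2g10 levels there were -0.12, -0.18, -0.43, -1.0 and -0.90, below every Stat6+/- and every Epi+ array. Stat6+/- exceeded PBS by 2.25 ± 0.37 (limma adjusted p = 0.000933) and Epi+ exceeded PBS by 1.80 ± 0.37 (limma adjusted p = 0.0129). In both comparisons the same 3 members were called, Pla2g10, Hpgds and Alox15, against 7.13% of probes for Stat6+/- and 2.83% for Epi+. Fits of only the 2 groups compared called no member in either (lowest limma adjusted p = 0.0575 and 0.120). Over the alternative settings, the number of all probes called fell to as few as 4 for Stat6+/- and 0 for Epi+ against PBS. Stat6-/- minus PBS gave 0 called members by limma, where 0.599% of probes were called and 19.5% had an unadjusted p under 0.05. Only Ptgs2 among the members had an unadjusted limma p under 0.05 there.

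In OVA perfusate Pla2g10 levels were 0.25, 0.46, 0.78, 1.58 and 2.41, again above all PBS arrays. The difference from PBS was 1.62 ± 0.37, positive within 5 of 5 preparations, but it was not called (limma adjusted p = 0.0838). OVA against PBS in perfusate gave 0 called members, with 0.237% of probes called by limma and 9.16% at an unadjusted p under 0.05. With preparation 1.3 left out, Pla2g10 was called, at 1.94 (limma adjusted p = 0.0342).

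Ptgs2, the inducible cyclooxygenase, varied with the reference preparation more than with the group. Over the 25 perfusate arrays the preparation took 67.3% of its sum of squares and the group 17.1%. Mean levels were 1.27 with preparation 1.1, 0.73 with 1.2, 0.23 with 1.3, -0.27 with 1.4 and -0.18 with 1.5, over 5 arrays each. In Stat6+/- perfusate the levels were 0.68, 1.12, -0.11, 1.76 and 0.11, and in Stat6-/- perfusate 0.73, 1.06, -0.47, 1.24 and -0.02, so the groups overlapped throughout. The difference was 0.20 ± 0.22 (limma adjusted p = 0.802).

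For the other members the group was the larger share. It took 82.8% of the sum of squares for Alox15, 65.4% for Pla2g10 and, over the 24 arrays with a value, 70.1% for Hpgds, while the preparation took 1.15%, 15% and 16.6%. For Tbxas1 the preparation took 37.8%, close to the share of the group. PBS replicate 24 had no value for Hpgds or Tbxas1.

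Against PBS, Ptgs2 was higher by 0.72 ± 0.22 in Stat6+/- perfusate, within 5 of 5 preparations, and just missed the threshold (limma adjusted p = 0.0527). It passed under 4 of 8 alternative settings: quantile normalization (0.96, limma adjusted p = 0.0133), scaled arrays, probes with a value on every array, and the arrays with low Eif2s3y left out. It also passed without PBS replicate 24 (0.86) or replicate 25 (0.81). Epi+ exceeded PBS by 0.54 ± 0.22 and Stat6-/- exceeded PBS by 0.52 ± 0.22, and neither was called. The 3 IL-13 groups share the PBS arrays as their baseline.

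Hpgds encodes the synthase that makes prostaglandin D2 in immune cells such as mast cells. Its levels in Stat6+/- perfusate were 1.67, 2.05, 1.82, 1.78 and 1.78, the narrowest of the 5 groups. In Epi+ perfusate they were 0.23, 2.52, 0.51, 1.73 and 1.01, and in Stat6-/- perfusate -0.20, -0.03, -0.35, 1.23 and -0.33. All Stat6+/- arrays lay above all Stat6-/- arrays, where only replicate 13 was above 0, while Epi+ spread across both.

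The difference of Stat6+/- from Stat6-/- was 1.76 ± 0.30, a 3.38-fold change (limma adjusted p = 0.00224). Without the arrays with low Eif2s3y, where Stat6-/- kept only replicates 13 and 14, it was 1.48 and not called (limma adjusted p = 0.147). Epi+ exceeded Stat6-/- by 1.14 ± 0.30, within 5 of 5 preparations, and was not called (limma adjusted p = 0.130). Hpgds levels in OVA perfusate were -0.93, 0.47, 0.20, 0.18 and -0.15, and the 4 PBS values were -0.47, -0.27, 0.14 and -1.45. These overlapped, with a difference of 0.52 ± 0.32 (limma adjusted p = 0.687).

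Between Stat6+/- and PBS perfusate, the difference of Hpgds was 2.39 ± 0.32 over 4 PBS arrays, a 5.23-fold change that ranked 12 from the top of 16874 probes (limma adjusted p = 0.000198). For Epi+ it was 1.77 ± 0.32 (limma adjusted p = 0.00641).

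Tbxas1 encodes thromboxane A synthase, an enzyme of platelets and macrophages. In Stat6+/- perfusate its levels were -1.12, -0.97, -0.44, -1.35 and 0.20, against -0.13, -0.29, 0.13, -0.84 and -0.61 in Stat6-/- perfusate. Stat6+/- was lower within 4 of 5 preparations and the groups overlapped. The difference was -0.39 ± 0.20 and was not called (limma adjusted p = 0.458). Against PBS it was -0.72 ± 0.22 (limma adjusted p = 0.0538), and it was called without Stat6+/- replicate 8, at -0.93 (limma adjusted p = 0.0103), and without the arrays with low Eif2s3y, at -0.71 (limma adjusted p = 0.0394).

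Alox15 encodes a lipoxygenase that adds oxygen to arachidonic acid and is known as a gene induced by IL-13 in human airway cells and monocytes. Its levels in Stat6+/- perfusate were 1.04, 1.01, 1.80, 1.39 and 1.22, and in Epi+ perfusate 1.38, 1.20, 1.12, 1.15 and 0.93. In Stat6-/- perfusate they were -0.11, 0.23, 0.50, 0.14 and -0.28. Stat6+/- and Epi+ arrays overlapped each other and all lay above every Stat6-/- array.

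Alox15 was higher by 1.20 ± 0.18 in Stat6+/- than in Stat6-/-, a 2.29-fold change (limma adjusted p = 0.000617), and by 1.06 ± 0.18 in Epi+, a 2.09-fold change (limma adjusted p = 0.00678). Both differences were positive within 5 of 5 preparations. The first kept its call under each alternative and each single array left out. The second lost it under 5 of 8 alternatives, with differences of 0.95 to 1.19 and limma adjusted p-values of 0.0666 to 0.296. Stat6+/- and Epi+ differed by 0.14, with a 95% interval of -0.24 to 0.52.

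OVA perfusate had Alox15 levels of 0.88, 0.79, 0.36, 0.74 and 1.03, against 0.26, 0.17, -0.13, 0.33 and 0.16 in PBS perfusate. The groups did not overlap. The difference of 0.60 ± 0.18 was not called (limma adjusted p = 0.226). In order of mean level the perfusate groups ran Stat6+/-, Epi+, OVA, PBS and Stat6-/-, and of the neighbours in that order only OVA and PBS had ranges that did not overlap.

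Epithelial cell markers also differed in perfusate. Of 10 mucous cell markers, 5 were called higher in Stat6+/- than in Stat6-/-, among them Clca1 by 3.77 ± 0.31 and Muc5ac by 3.38 ± 0.29, and 3 were called in Epi+. The mean of the 6 markers with a value on every array was 0.59 to 1.27 in Stat6+/-, 0.67 to 1.18 in Epi+ and -0.75 to -0.09 in Stat6-/- samples. It was 0.90 to 1.33 in OVA and -0.53 to 0.16 in PBS samples. Of 8 ciliated cell markers, 3 were called higher in Stat6+/- than in Stat6-/-, with the mean of 8 at a median of 0.55 in Stat6+/-, 0.39 in Epi+ and -0.09 in Stat6-/- samples. Of 10 club cell markers, 2 were called lower, Pon1 and Cckar, with the mean of 9 at -0.47 to -0.21 in Stat6+/-, -0.18 to 0.09 in Epi+ and 0.09 to 0.46 in Stat6-/- samples. Of the macrophage markers 0 of 9 were called between Stat6+/- and Stat6-/- perfusate, 2 of them with an unadjusted limma p under 0.05, and of the mast cell and basophil markers 0 of 9, with 1 under 0.05. The part of any cell type in the members' differences was not tested.

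The genes most like each member over the perfusate arrays, with the mean of each preparation removed, are given as a description. They share groups, arrays and references. For Pla2g10 they were Fkbp11 (Pearson r = 0.907), Sgca (0.862) and Slc26a4 (0.860), and for Alox15 they were Plat (0.918), 2210010C04Rik (0.889) and Nadsyn1 (0.881), over 25 arrays. For Hpgds they were Shank3 (0.890), Col13a1 (0.886) and Hoatz (0.883) over 24 arrays. Among the members themselves, Alox15 and Pla2g10 had r = 0.812, Hpgds and Pla2g10 0.733, and Hpgds and Alox15 0.696. The genes nearest to Ptgs2 were 1600012H06Rik (0.924), Bag5 (0.919) and Bag2 (0.915). For Tbxas1 they were Cdc45 (0.780), Ptpru (0.770) and 9430015G10Rik (0.756).

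In whole lung, Tbxas1 was the 1 member called between Stat6+/- and Stat6-/-, and it was higher in Stat6+/-. Here 4.83% of 16097 probes were called. Its levels in Stat6+/- lung were 2.68, 2.58, 1.16, 2.03 and 2.13, in Epi+ lung 0.64, -0.27, -1.43, 0.82 and 0.06, and in Stat6-/- lung -0.92, 0.28, 0.09, -0.36 and -1.79. Every Stat6+/- array lay above every array of the other IL-13 groups, which overlapped.

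**Figure D2:**
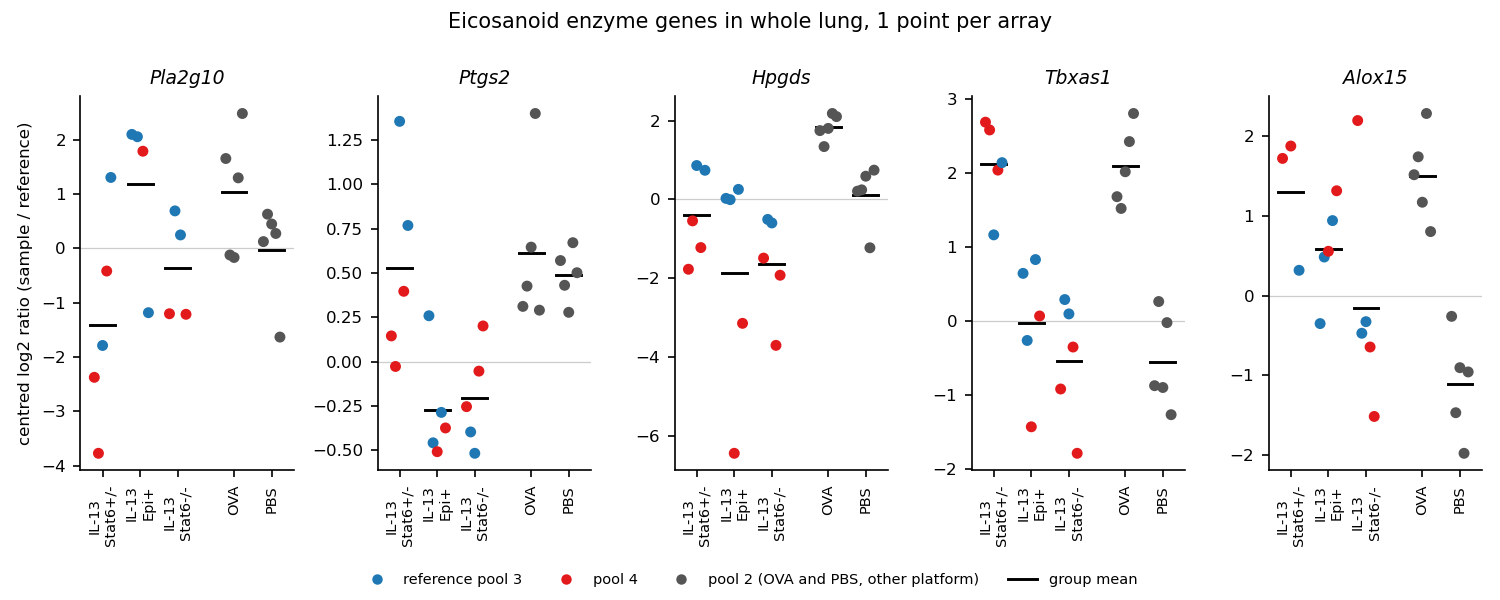
Centred log2 ratios of the same 5 genes on the 25 whole lung arrays, 1 point per array coloured by reference pool, with group means as black bars. OVA and PBS arrays are on the smaller platform with their own reference, so their levels are not comparable with those of the IL-13 groups. Tbxas1 is higher in every Stat6+/- array than in the other IL-13 arrays and, on the other platform, higher in every OVA than in every PBS array, and Hpgds is lower with pool 4 than with pool 3 in each IL-13 group.

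Tbxas1 was higher by 2.66 ± 0.46 in Stat6+/- than in Stat6-/- lung, a 6.31-fold change (limma adjusted p = 0.00579), at 1.46 within reference pool 3 and 3.46 within pool 4. It was 2.29 and not called on values that were not centred (limma adjusted p = 0.0764). Stat6+/- exceeded Epi+ by 2.25 ± 0.47 (limma adjusted p = 0.0220), where Tbxas1 was again the 1 member called, against 3.42% of probes. That call was lost under 5 of 8 alternatives, with differences of 1.91 to 2.21 and limma adjusted p-values of 0.0760 to 0.178, and without Epi+ replicate 3 (1.89, limma adjusted p = 0.0639). Epi+ minus Stat6-/- gave 0 called members, with 0.0745% of probes called by limma and 4.17% at an unadjusted p under 0.05, and the Tbxas1 difference was 0.40, with a 95% interval of -0.61 to 1.42.

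OVA lungs, on the other platform, gave 3 called members against PBS lungs, Alox15, Tbxas1 and Hpgds, where 1.75% of 17047 probes were called. Tbxas1 levels were 1.67, 1.52, 2.01, 2.42 and 2.80 in OVA lung, against -0.88, 0.26, -0.90, -0.03 and -1.27 in PBS lung. The groups did not overlap, and the difference was 2.65 ± 0.37, a 6.27-fold change (limma adjusted p = 0.00998). On values that were not centred it was 2.48 (limma adjusted p = 0.0523).

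Macrophage markers were higher in the same lung groups as Tbxas1. The order of arrays within a group was shared in part. In Stat6+/- lung, replicate 1 had the highest Tbxas1 level (2.68) and the lowest marker mean (1.66). In Epi+ lung, replicate 3 had the lowest Tbxas1 level (-1.43) and the highest marker mean (1.11). Both arrays were with reference pool 4, and pool means were not removed here. Epi+ marker means were 1.11 and 0.88 with pool 4, against 0.28, -0.22 and 0.01 with pool 3. In OVA lung, replicates 5 and 6 were highest on both. Stat6-/- lung replicate 6 was lowest on both (-1.79 and 0.02), as was PBS lung replicate 5 (-1.27 and -0.38). In whole lung 6 of 9 were called higher in Stat6+/- than in Stat6-/-, with a median difference of 2.28 over the 9, among them Cd68 by 3.12 ± 0.32, Itgax by 3.16 ± 0.27 and Marco by 2.28 ± 0.49. Against Epi+ 4 of 9 were called higher, and in OVA against PBS lung 4 of 10, with a median of 1.50. The mean of the 5 markers with a value on every array was 1.66 to 3.37 in Stat6+/-, -0.22 to 1.11 in Epi+ and 0.02 to 0.25 in Stat6-/- lungs, and of 10 such markers 1.31 to 2.00 in OVA and -0.38 to 0.41 in PBS lungs. In perfusate the range of the 5 markers was -0.91 to 0.06 in Stat6+/- and -0.60 to 0.09 in Stat6-/- samples. It was -0.04 to 0.23 in OVA and -0.52 to -0.22 in PBS perfusate, where Tbxas1 differed by 0.21 ± 0.22 (limma adjusted p = 0.860).

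Platelets are the other cell type known for this enzyme. Of 7 platelet and megakaryocyte markers, 2 were called lower in Stat6+/- than in Stat6-/- lung, Ppbp by -2.06 ± 0.32 and Treml1 by -1.35 ± 0.28, and none of 7 was called in OVA against PBS lung, with 1 at an unadjusted limma p under 0.05. The mean of 5 of them was -1.3 to -0.29 in OVA lung and -1.32 to -0.14 in PBS lung. Neutrophil markers were called higher in 2 of 11 cases in Stat6+/- against Stat6-/- lung, Ltf by 2.89 ± 0.39 and Cxcr2 by 1.61 ± 0.33, and the mean of 4 was 0.96 to 2.82 in Stat6+/-, 0.08 to 0.46 in Epi+ and -0.22 to 0.85 in Stat6-/- lung. Endothelial markers were lower in 4 of 9 cases in Stat6+/- against Stat6-/- lung. The eosinophil marker Rnase2a, 1 of 6 with a probe, was higher by 5.04 ± 0.73 there. The mean of 2 eosinophil markers was 1.63 to 3.45 in Stat6+/-, -0.88 to 1.20 in Epi+ and -0.56 to 2.41 in Stat6-/- lung, so Stat6+/- and Stat6-/- overlapped. The part of these cells in the Tbxas1 result was not tested.

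**Figure D3:**
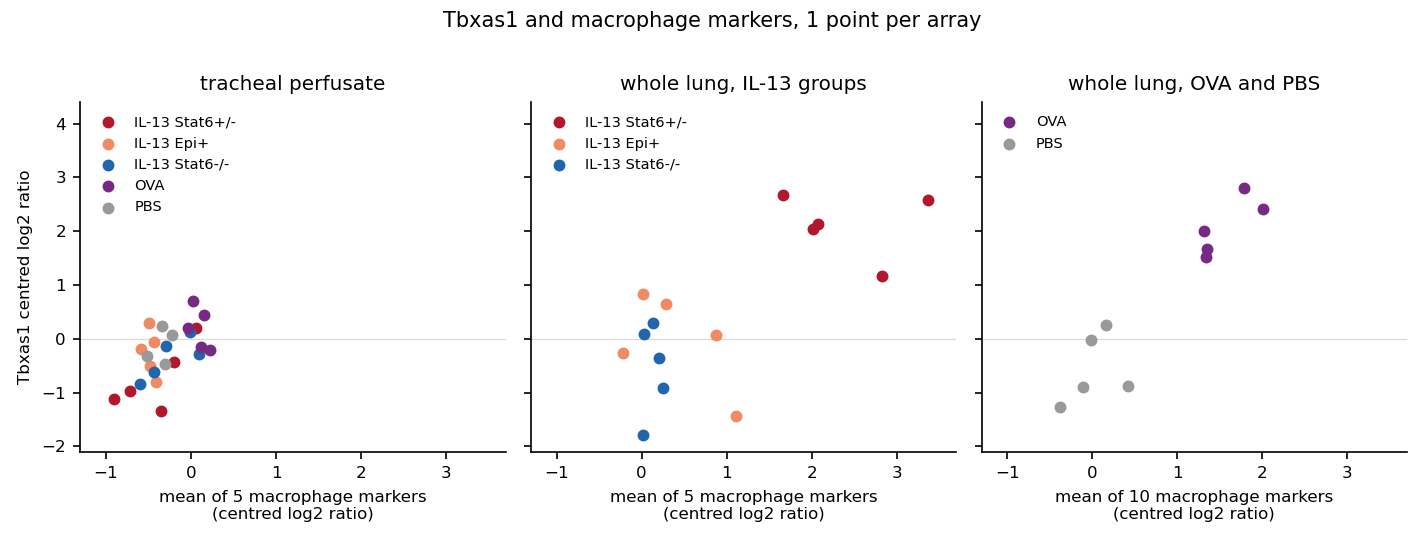
Tbxas1 level (vertical axis) against the mean level of macrophage markers (horizontal axis), both as centred log2 ratios, 1 point per array coloured by group, in 3 panels: perfusate (5 markers), IL-13 lungs (5 markers) and OVA and PBS lungs (10 markers, other platform, not comparable with the rest). Within the lung panels, Stat6+/- arrays lie above and to the right of the other IL-13 arrays and OVA arrays above and to the right of PBS arrays.

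The tissue difference was tested as an interaction over the 40 arrays of the larger platform. The change of Tbxas1 between Stat6+/- and Stat6-/- was lower in perfusate than in whole lung by 3.05 on the log2 scale (-3.05 ± 0.49, limma adjusted p = 0.000148), the 1 member called there, against 4.31% of 15371 probes. In the same term 6 of 9 macrophage markers were called lower, with a median of -2.17. The term for Epi+ minus Stat6-/- called 0 members, with 0.0976% of probes called by limma and 5.98% at an unadjusted p under 0.05. Perfusate RNA was amplified and whole lung RNA was not, per the labels, so tissue and amplification cannot be told apart.

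Alox15 in whole lung was 1.52, 1.74, 1.17, 2.28 and 0.80 in OVA, against -0.26, -1.47, -0.90, -1.98 and -0.96 in PBS samples. The groups were far apart, by 2.62 ± 0.37, a 6.13-fold change (limma adjusted p = 0.00998), and the call held under each alternative except the replicate block. Eosinophil markers were called higher in 1 of 6 cases in the same comparison, with the mean of 5 at 0.44 to 1.18 in OVA and -1.12 to -0.14 in PBS lung, B cell markers in 2 of 7, with the mean of 6 at 0.43 to 1.64 in OVA and -1.33 to 0.25 in PBS lung, and mucous cell markers in 5 of 10. Their part in the Alox15 difference was not tested. In the IL-13 groups the gene had values on 3 of 5 Stat6+/- arrays, at 1.72, 1.88 and 0.32, and in Stat6-/- lung it was at 2.20, -0.47, -0.33, -0.64 and -1.52. Stat6-/- replicate 1, one of the arrays with low Eif2s3y, was higher than all Stat6+/- arrays with a value. The difference of 1.41 ± 0.68 was not called (limma adjusted p = 0.291), and without that array it was 1.99 (limma adjusted p = 0.0596).

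Hpgds in OVA lung was at 1.75, 1.34, 1.81, 2.18 and 2.11, above all PBS lungs at 0.21, 0.24, 0.59, -1.23 and 0.74. The difference was 1.73 ± 0.37 (limma adjusted p = 0.0454). This call was lost whichever single array was left out, with differences of 1.39 to 1.88 and limma adjusted p-values up to 0.0986, and with quantile normalization (1.27), scaled arrays (1.48) and values not centred (1.56). Mast cell and basophil markers were called higher in 2 of 9 cases in OVA lung, Mcpt8 by 3.77 ± 0.48 and Fcer1a by 2.55 ± 0.49. T cell markers were called in 0 of 11 cases by limma, although 7 had an unadjusted p under 0.05. Their part in the Hpgds difference was not tested.

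In the IL-13 lungs Hpgds followed the reference pool. Its mean was 0.11 over the 7 arrays with pool 3 and -2.53 over the 8 with pool 4, and the 3 lowest values were all with pool 4, at -6.45 and -3.15 in Epi+ and -3.71 in Stat6-/- lung. Stat6+/- minus Stat6-/- was 1.26 ± 0.71, at 1.35 and 1.19 within the pools, and was not called (limma adjusted p = 0.365). Stat6+/- minus Epi+ was 2.06 ± 0.72 (limma adjusted p = 0.141), and Epi+ minus Stat6-/- was -0.80 ± 0.72, or 0.15 without Epi+ replicate 3.

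Pla2g10 in the IL-13 lungs had the widest spread after Hpgds, and no comparison was called. Its levels were -2.37, -3.77, -1.79, -0.42 and 1.30 in Stat6+/- lung, 2.10, 2.05, 1.79 and -1.18 over 4 Epi+ arrays, and -1.20, 0.69, 0.25 and -1.21 over 4 Stat6-/- arrays. All groups overlapped. The sign of Stat6+/- minus Stat6-/- was opposite to that in perfusate, at -0.92 ± 0.95, and the interaction of 2.93 ± 0.93 was not called (limma adjusted p = 0.0698) except without Stat6+/- lung replicate 5 (3.30) or replicate 6 (3.59), or on values not centred (3.48). In OVA lung the levels were 1.65, -0.12, -0.17, 1.30 and 2.48, against 0.12, 0.63, 0.45, 0.27 and -1.63 in PBS lung, with a difference of 1.06 ± 0.59 (limma adjusted p = 0.417).

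Ptgs2 in lung was 0.15, -0.03, 1.36, 0.40 and 0.77 in Stat6+/-, 0.26, -0.46, -0.51, -0.29 and -0.37 in Epi+ and -0.25, -0.40, -0.52, -0.05 and 0.20 in Stat6-/- samples. The Stat6+/- group was the highest and overlapped both. It exceeded Stat6-/- by 0.73 ± 0.26 (limma adjusted p = 0.132) and Epi+ by 0.85 ± 0.26 (limma adjusted p = 0.0947). OVA and PBS lungs differed by 0.12 ± 0.26.

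**Figure D4:**
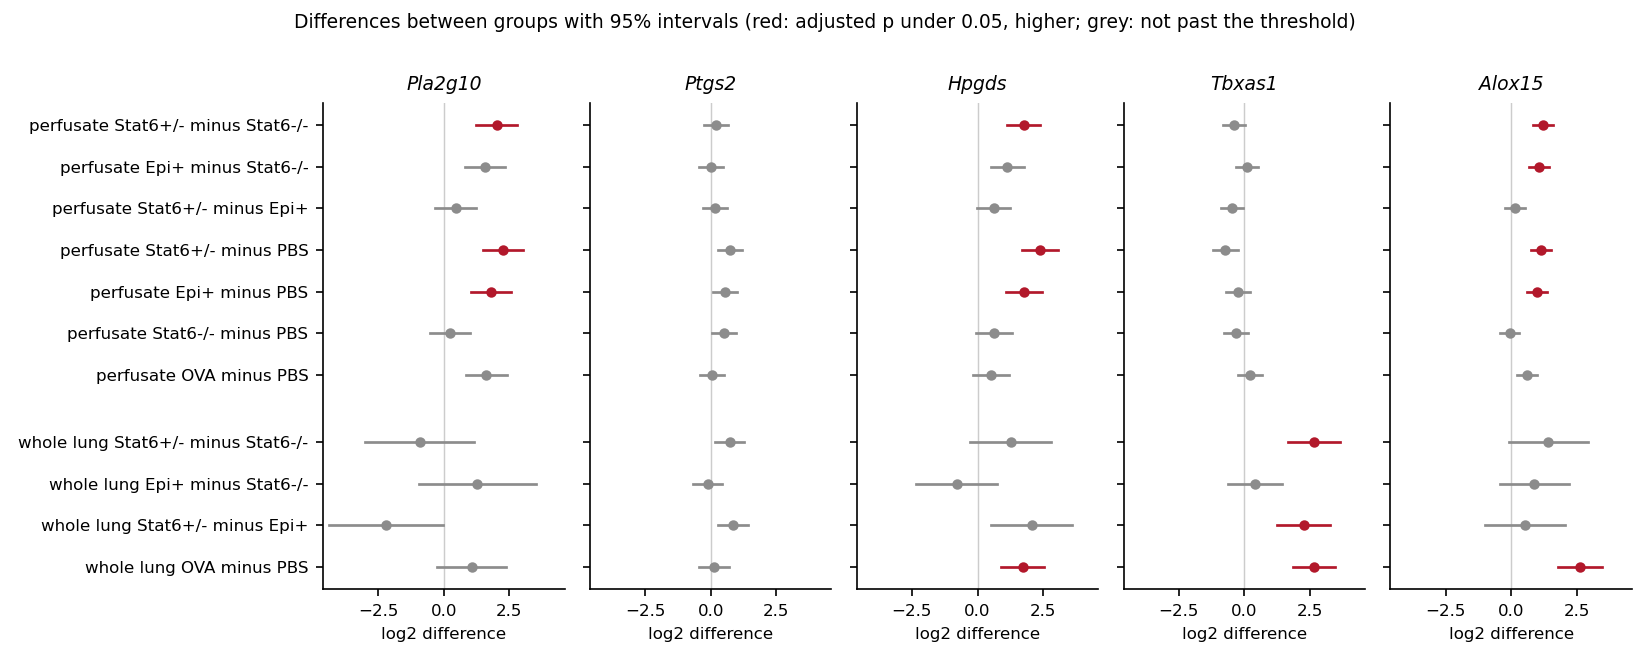
Log2 differences between groups (points) with limma's 95% intervals (lines) for the 5 measured genes in 7 perfusate and 4 whole lung comparisons. Red marks an adjusted p under 0.05, all of them higher in the group named first, and grey marks the rest. In perfusate the red points belong to Pla2g10, Hpgds and Alox15, and in whole lung to Tbxas1, Alox15 and Hpgds.

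Over the 15 lung IL-13 arrays with pool means removed, the genes nearest to Tbxas1 were Pdia4 (Pearson r = 0.932), Sephs2 (0.929) and F7 (0.929). Those nearest to Hpgds were Dock11 (0.911), Cd3d (0.900) and Aldh1l1 (0.898), and to Ptgs2 they were Slc25a12 (0.924), Prkx (0.888) and Itgav (0.876). Over 13 arrays with a value, Alox15 was nearest to Sh2d2a (0.861), Rpusd4 (0.788) and Tor2a (0.784) and Pla2g10 to Il31 (0.915), Ints8 (0.869) and Acaca (0.869).

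The rest of the pathway was read from a list of 66 other eicosanoid genes, of which 53 had a probe. In perfusate, Stat6+/- against Stat6-/-, none of the 53 was called higher and 3 were called lower, with a median difference of -0.08 against -0.02 over all probes. They were Hpgd, Ephx1 and Ptgdr2. Over all probes 1.11% were called higher and 2.02% lower. None of the 16 phospholipase and lipase genes or the 8 other prostanoid synthase genes was called, and Pla2g4a, the cytosolic phospholipase, differed by 0.53 ± 0.22 and Ptgds, the lipocalin-type prostaglandin D synthase, by 0.10 ± 0.28.

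Hpgd encodes 15-hydroxyprostaglandin dehydrogenase, which inactivates prostaglandins. Its levels were -1.22, -0.46, -1.99, -1.93 and -2.57 in Stat6+/- perfusate and -1.19, -1.06, -1.24, -0.61 and -1.53 in Epi+ perfusate, against 0.14, 0.39, 0.16, 0.16 and -0.24 in Stat6-/- perfusate. Neither group overlapped Stat6-/-. Hpgd fell by 1.76 in Stat6+/- (-1.76 ± 0.26, limma adjusted p = 0.000539) and by 1.25 in Epi+ samples (-1.25 ± 0.26, limma adjusted p = 0.0355), where it was the 1 other gene called, against 0.486% of all probes. It was also lower than in PBS, by -1.55 ± 0.26 in Stat6+/- and -1.04 ± 0.26 in Epi+ perfusate.

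Stat6+/- lungs gave a like difference for Hpgd. Its levels were -1.31, -2.45, -0.60, -2.08 and -1.88 in Stat6+/-, against 0.00, 0.21, 0.09, 0.54 and 0.52 in Stat6-/- lung. The groups did not overlap, and the difference was -1.94 ± 0.36 (limma adjusted p = 0.00759). In Epi+ lung Hpgd overlapped Stat6-/-, with a difference of -0.65 ± 0.36 that was not called (limma adjusted p = 0.983). In OVA against PBS samples it was lower without a call, by -1.16 ± 0.26 in lung (limma adjusted p = 0.0517) and by -0.82 ± 0.26 in perfusate (limma adjusted p = 0.258).

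**Figure D5:**
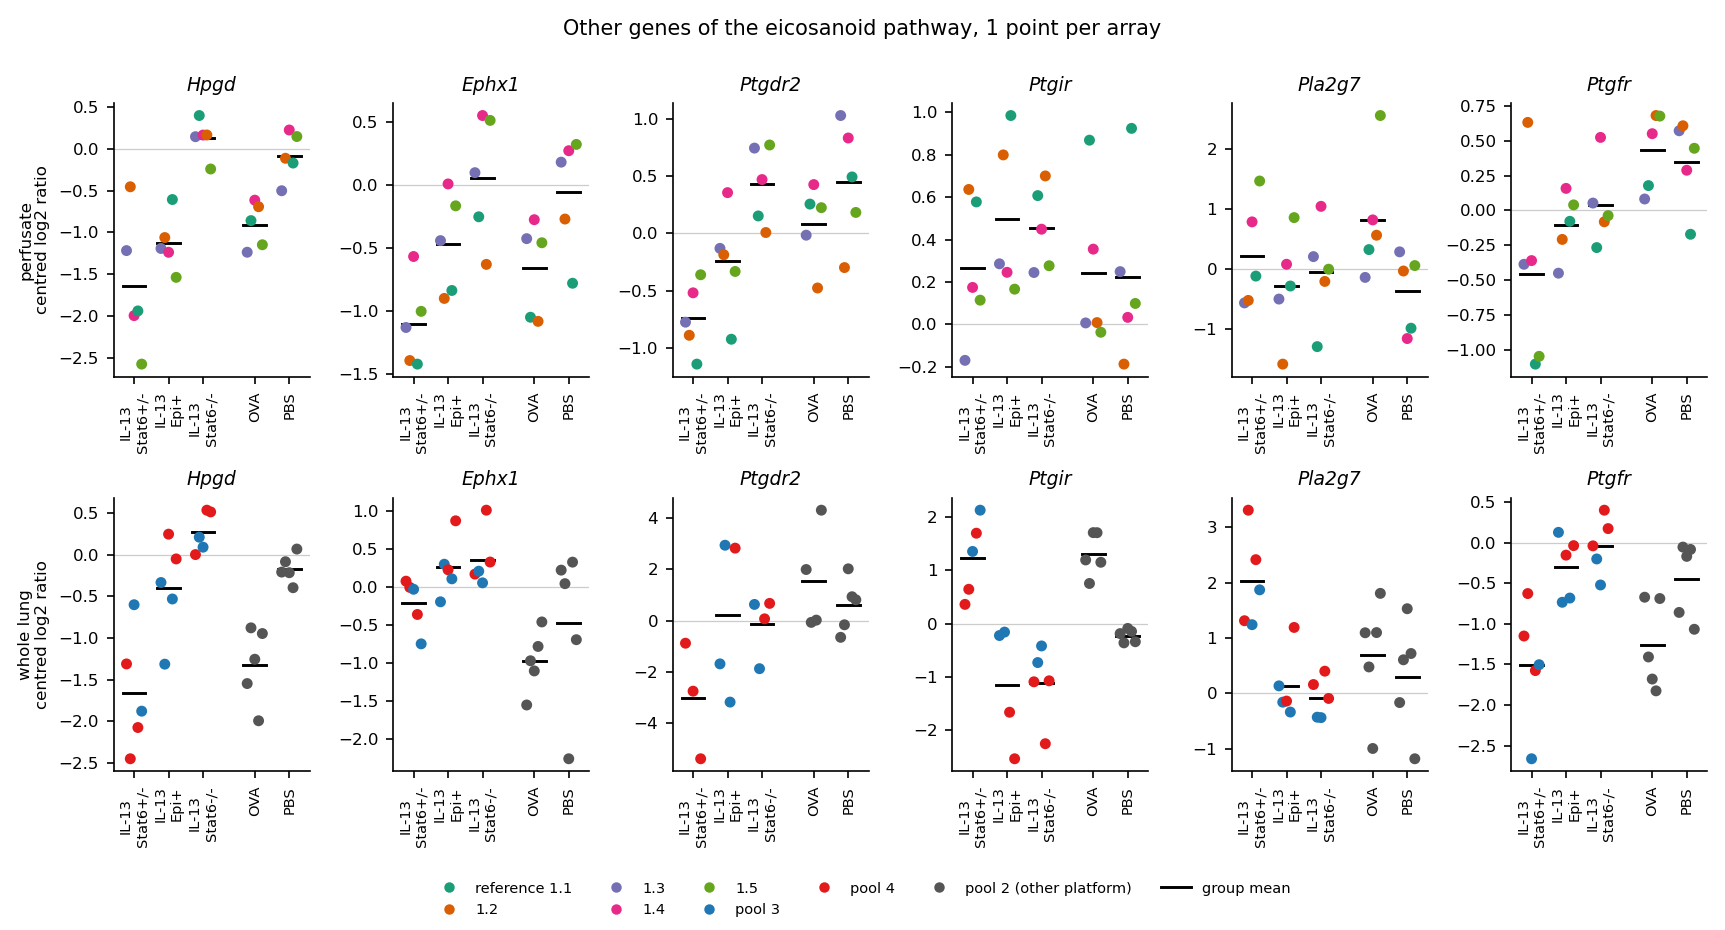
Centred log2 ratios of 6 further genes of the pathway in tracheal perfusate (top row) and whole lung (bottom row), 1 point per array coloured by reference, with group means as black bars. Hpgd is lower in Stat6+/- than in Stat6-/- samples of both tissues, and Ptgir and Pla2g7 are higher in Stat6+/- than in Stat6-/- lung with no overlap.

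Ephx1, a microsomal epoxide hydrolase, differed by -1.16 ± 0.13 between Stat6+/- and Stat6-/- perfusate (limma adjusted p = 2.98e-05), and Ptgdr2, the prostaglandin D2 receptor of T helper 2 cells and eosinophils, by -1.16 ± 0.21 (limma adjusted p = 0.00276). Ptgdr2 levels were -0.77, -0.89, -0.52, -1.14 and -0.36 in Stat6+/-, against 0.74, 0.15, 0.47, 0.01 and 0.77 in Stat6-/- samples, with no overlap. The other prostaglandin D2 receptor gene, Ptgdr, was higher in Stat6+/- than in PBS perfusate, by 1.56 ± 0.43 (limma adjusted p = 0.0362, over 4 PBS arrays).

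Against PBS, 6 of the 53 were called in Stat6+/- perfusate: Ptgdr and Pla2r1 (0.82 ± 0.23), a receptor of secreted phospholipases, higher, and Hpgd, Ephx1, Ptgdr2 and the prostaglandin F receptor Ptgfr (-0.80 ± 0.23) lower. Over all probes 7.13% were called there. In Epi+ against PBS Hpgd was the 1 gene called, against 2.83% of all probes. None was called for Stat6-/- against PBS, OVA against PBS or Stat6+/- against Epi+ in perfusate, where 5, 4 and 3 of 53 had an unadjusted limma p under 0.05. Over all probes, 0.599%, 0.237% and 0.0237% were called in these 3 comparisons. The shares at an unadjusted limma p under 0.05 were 19.5%, 9.16% and 7.02%.

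In whole lung, 4 of 52 tested genes were called between Stat6+/- and Stat6-/-, against 4.83% of all probes. The prostacyclin receptor Ptgir was at 0.36, 0.65, 1.36, 1.70 and 2.13 in Stat6+/-, against -1.09, -0.73, -0.42, -2.25 and -1.07 in Stat6-/- lung, with no overlap and a difference of 2.35 ± 0.36 (limma adjusted p = 0.00287). Pla2g7, the phospholipase that hydrolyses platelet-activating factor and is made by macrophages, was higher by 2.11 ± 0.34 (limma adjusted p = 0.00335). Hpgd and Ptgfr (-1.47 ± 0.27) were lower.

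Stat6+/- against Epi+ lung called 4 of 52, Ptgir (2.50 ± 0.38), Pla2g7 (1.76 ± 0.35) and the prostaglandin reductase Ptgr1 (0.71 ± 0.18) higher and Ptgfr (-1.33 ± 0.28) lower. Over all probes 3.42% were called there. Epi+ against Stat6-/- lung called none, with 2 of 52 at an unadjusted limma p under 0.05. Over all probes these shares were 0.0745% and 4.17%. In OVA against PBS lung, 2 of 53 were called, against 1.75% of all probes. Ptgir was higher by 1.53 ± 0.24 (limma adjusted p = 0.0135), and the leukotriene D4 dipeptidase Dpep1 was lower by -2.60 ± 0.38 (limma adjusted p = 0.0105).

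The interaction of tissue with Stat6+/- minus Stat6-/- called 2 of 52, against 4.31% of all 15371 probes. They were Ptgir (-2.54 ± 0.37, limma adjusted p = 3.69e-05) and Ptgr1 (-0.98 ± 0.26, limma adjusted p = 0.0221), both lower in perfusate than in lung. Ptgir, like Tbxas1, was called higher in Stat6+/- and in OVA lung, where macrophage markers were higher too, and the part of those cells was not tested. The interaction with Epi+ called none, with 5 of 52 at an unadjusted limma p under 0.05. Over all probes these shares were 0.0976% and 5.98%.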

How the data were processed

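Total RNA of tracheal perfusate and whole lung was hybridised against a reference on 2-channel arrays, reference in channel 1 and sample in channel 2, per the labels. Perfusate RNA had 1 round of amplification and lung RNA none. The labels of 3 arrays with preparation 1.3 do not state it. The authors deposited log2 ratios, 1 per spot, on platforms of 19152 and 18240 spots, and the sources used here do not give their normalization. Array medians ran from -0.96 to 0.30. The arrays held 15693 to 18655 spots with a value, and their number limits the precision. No 2 arrays were identical.

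Each array was centred on its median and spots of 1 accession were averaged. Linear models with limma 3.58.1 variances (R 4.3.3) were fitted where 3 arrays of every group had a value, with Benjamini-Hochberg adjustment over all probes. The perfusate fit held 25 arrays with preparations 1.1 to 1.5 as a block, the lung IL-13 fit 15 arrays with pools 3 and 4 as a block, the lung OVA and PBS fit 10 arrays against pool 2, and the interaction 40 arrays. The code was tested on simulated data. Alternatives were uncentred values, quantile normalization, scaled arrays, no reference block, probes with a value on every array, fits of 2 groups, a replicate block, and arrays left out.

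Symbols came from the platform annotation, updated to GRCm38.p6, and unlisted spots were tested but not named. Upstream sequences are RefSeq's for that build. Named genes were the members, Stat6, Il13, other eicosanoid genes that passed (at most the 6 with the smallest adjusted p), the 3 nearest by Pearson r, and up to 4 passing markers per list beside a result. The members of the set and all lists were chosen with earlier results of these data known. Pla2g4a and Ptgds were chosen after their values were seen.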

Additional observations from a re-analysis of the deposited data

Results flagged for a closer look

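In a group of 4 or 5 arrays, 5 member values stood far from the rest, out of 49 gene groups examined, where chance gives such a value in about 1 group of 20. Hpgds was at 1.23 in Stat6-/- perfusate replicate 13, while the nearest array of the group was at -0.03. Pla2g10 was at -1.18 in Epi+ lung replicate 4, with the nearest at 1.79 over 4 arrays. Ptgs2 was at 0.26 in Epi+ lung replicate 1, with the nearest at -0.29. In PBS lung, Hpgds was at -1.23 in replicate 4 and Pla2g10 at -1.63 in replicate 5, with the nearest arrays at 0.21 and 0.12. None of these arrays decided a call except for Hpgds in OVA against PBS lung, which lost its call whichever single array was left out.

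The change of Tbxas1 between Stat6+/- and Stat6-/- samples differed between tissues, by -3.05 ± 0.49 for perfusate minus whole lung in the limma interaction.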

How the results depend on the processing

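Of the 16 called member results, 82 of 114 values under alternative settings kept direction and call, 32 lost the call and none changed direction. With single arrays left out, 159 of 170 kept it. The 11 losses were the 10 of Hpgds in OVA against PBS lung and 1 of Tbxas1 in Stat6+/- against Epi+ lung. Of the 49 results not called, 8 of 348 and 5 of 571 values passed. Without centring, the members called numbered 0 for Epi+ against Stat6-/- and 1 for Epi+ against PBS in perfusate, 0 for Stat6+/- against Stat6-/- and 0 against Epi+ in lung, 1 for OVA against PBS in lung and 2 for the Stat6+/- interaction. Scaled arrays gave 0 for Epi+ against Stat6-/- in perfusate and 0 for Stat6+/- against Epi+ in lung, and quantile normalization gave 0 for the same lung comparison. Without the reference block, Epi+ against PBS in perfusate gave 1. With probes measured on every array, Epi+ against Stat6-/- gave 2 and the Stat6+/- interaction 0, since Tbxas1 lacks a value on 1 array and was not tested. Fits of 2 groups gave 2 for Stat6+/- against Stat6-/- in perfusate, without Pla2g10, and 0 for Epi+ against Stat6-/-, Stat6+/- against PBS and Epi+ against PBS in perfusate and 0 for Stat6+/- against Epi+ in lung, with fewer arrays for the spread. Without the arrays with low Eif2s3y, Stat6+/- perfusate gave 1 against Stat6-/- and 5 against PBS, and Epi+ gave 0 against Stat6-/-. The Stat6-/- perfusate group then kept only replicates 13 and 14. Without preparation 1.3 the counts were 0 for Epi+ against Stat6-/- and 1 for OVA against PBS. Single arrays left out moved Stat6+/- against Epi+ in lung between 0 and 1, the Stat6+/- interaction between 1 and 2 and Stat6+/- against PBS in perfusate between 3 and 4, and always gave 2 for OVA against PBS in lung. Counts over all probes moved with the settings too, and their ranges are given below. Where no cause is named, the cause was not tested.

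Replicate numbers are shared between lung groups only. Deviations of same-numbered lung arrays correlated at -0.42 to 0.27 in the IL-13 groups and -0.17 to -0.01 for OVA and PBS. Arrays with different numbers gave -0.36 to 0.41 and -0.21 to 0.24. These correlations cannot tell whether a number marks a shared batch. With a replicate block, Stat6+/- lung gave 0 called members against Stat6-/- and 0 against Epi+, and OVA lung gave 0 against PBS. Over all the alternative settings, the number of probes called fell to as few as 95, 61 and 0 in these 3 comparisons.

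Centring removed shifts between group means of -0.20 to 0.12 in perfusate and -0.37 to -0.16 in lung. Counts over all probes, without the fits that leave out 1 array, moved by more than 1.5 times in all 13 comparisons. For Stat6+/- against Stat6-/- they were 69 to 580 in perfusate (reported: 529) and 95 to 953 in lung (reported: 778), for OVA against PBS 0 to 66 in perfusate (reported: 40) and 0 to 440 in lung (reported: 299), for Epi+ against Stat6-/- 1 to 106 in perfusate (reported: 82) and 4 to 15 in lung (reported: 12), for Stat6+/- against Epi+ 0 to 7 (reported: 4) and 61 to 825 (reported: 550), against PBS 4 to 1607 for Stat6+/- (reported: 1203), 0 to 620 for Epi+ (reported: 478) and 0 to 288 for Stat6-/- (reported: 101), and for the interactions 229 to 586 (reported: 662) and 5 to 10 (reported: 15).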
